A study of Mus musculus with 12 samples.

Results

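Hypothalamic patterning transcription factors are the DNA-binding proteins that divide the embryonic hypothalamus into regions and mark its nuclei in the adult. The set described here is a list of 42 gene symbols out of the 55809 in the count tables. It was listed by name, with earlier results of these data known. It holds 8 LIM homeodomain genes, 13 NK-like homeodomain genes, 7 other homeodomain genes, 4 zinc finger genes, 4 nuclear receptor genes and 6 genes of other classes. Many of these genes act in overlapping domains before birth, after which a restricted group of neurons keeps each of them on. A gene of this kind is therefore usually abundant in one nucleus and close to absent in its neighbours. In a bulk library, fewer cells of a type and less RNA per cell cannot be told apart.

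RNA was sequenced from sorted mouse cells in 12 libraries, in 4 groups of 3. TOM positive and TOM negative cells were hypothalamic, from untreated Mc4r-Cre; Ai14 mice aged 4 weeks; Ai14 is a reporter that makes the red protein tdTomato wherever Cre has acted, and Mc4r encodes the melanocortin 4 receptor. The AAV-Cre and AAV-GFP groups came from the hypothalamic paraventricular nucleus (PVH). The mice were Otp fl/fl; Ai14, aged 26 weeks, and had received an adeno-associated virus with Cre or GFP 12 weeks before dissection. Cells were sorted as TOM positive after AAV-Cre and as GFP positive after AAV-GFP, so both groups carry the floxed Otp alleles and differ in the virus and in the colour sorted. Otp is a homeodomain gene needed for the PVH. Because tdTomato stays on once switched on, TOM positive cells of the Mc4r-Cre mice can include cells that had Cre only earlier in life. Nothing in the labels tells separate animals from repeat preparations, so the spread that a p-value is measured against may be technical.

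Library totals lay between 13506018 and 27827853 counts. Otp, the targeted gene, had 12, 9 and 10 counts in the AAV-Cre libraries, against 91, 102 and 38 in the AAV-GFP libraries. It had 36, 27 and 1 counts in TOM positive libraries, against 0 in each TOM negative library. Mc4r, which drives the Cre of the sorted mice, had 63, 0 and 0 counts in TOM positive libraries, against 0 in each TOM negative library. A list of 20 pan-neuronal genes took 0.0794% to 0.111% of counts in TOM positive libraries, against 0.0150% to 0.0191% in TOM negative libraries. A list of 15 oligodendrocyte genes took 9.91% to 11.2% in TOM positive libraries, far more than the neuronal list, against 2.34% to 2.97% in TOM negative libraries. The pan-neuronal share was 0.342% to 0.402% after AAV-Cre, against 0.222% to 0.343% after AAV-GFP. AAV-GFP replicate 2 stood apart from the other libraries of its group: its chi-square per degree of freedom against them was 273 and 289, against 149 between AAV-GFP replicates 1 and 3. Its oligodendrocyte share was 1.56%, against 4.17% and 5.02% in AAV-GFP replicates 1 and 3.

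Detection of the set differed between the groups. A count of at least 1 was found for 28 of the 42 genes after AAV-Cre (66.7%), against 41 after AAV-GFP (97.6%), and for 30 in TOM positive libraries (71.4%), against 24 in TOM negative libraries (57.1%). Of all symbols counted in any library, 66.5% were found after AAV-Cre, against 89.1% after AAV-GFP, and 70.8% in TOM positive libraries, against 76.1% in TOM negative libraries. The shares after AAV-Cre and in TOM positive libraries thus lay close to those of all symbols, the AAV-GFP share above and the TOM negative share below. All 3 libraries counted 16 genes in the AAV-Cre group, 32 in the AAV-GFP group, 13 in the TOM positive group and 11 in the TOM negative group. Those were 38.1%, 76.2%, 31.0% and 26.2% of the 42, against 43.3%, 62.1%, 46.5% and 53.0% of all symbols. By this stricter count the TOM positive share also lay below that of all symbols. The 7 genes counted in all 12 libraries were Foxb1, Meis2, Nkx2-2, Nr2f1, Nr2f2, Six3 and Zic1. Lmx1a, a LIM homeodomain gene of midbrain dopamine neurons and the mammillary region, had 0 counts in all 12 libraries. Bsx, Hmx2, Hmx3, Lhx8 and Lmx1b were counted in AAV-GFP libraries alone. The 7 genes counted everywhere held 55.9% to 58.0% of the set's counts after AAV-Cre, against 61.9% to 63.8% after AAV-GFP, and 67.5% to 81.0% in TOM positive libraries, against 75.8% to 87.1% in TOM negative libraries.

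**Figure D1:**
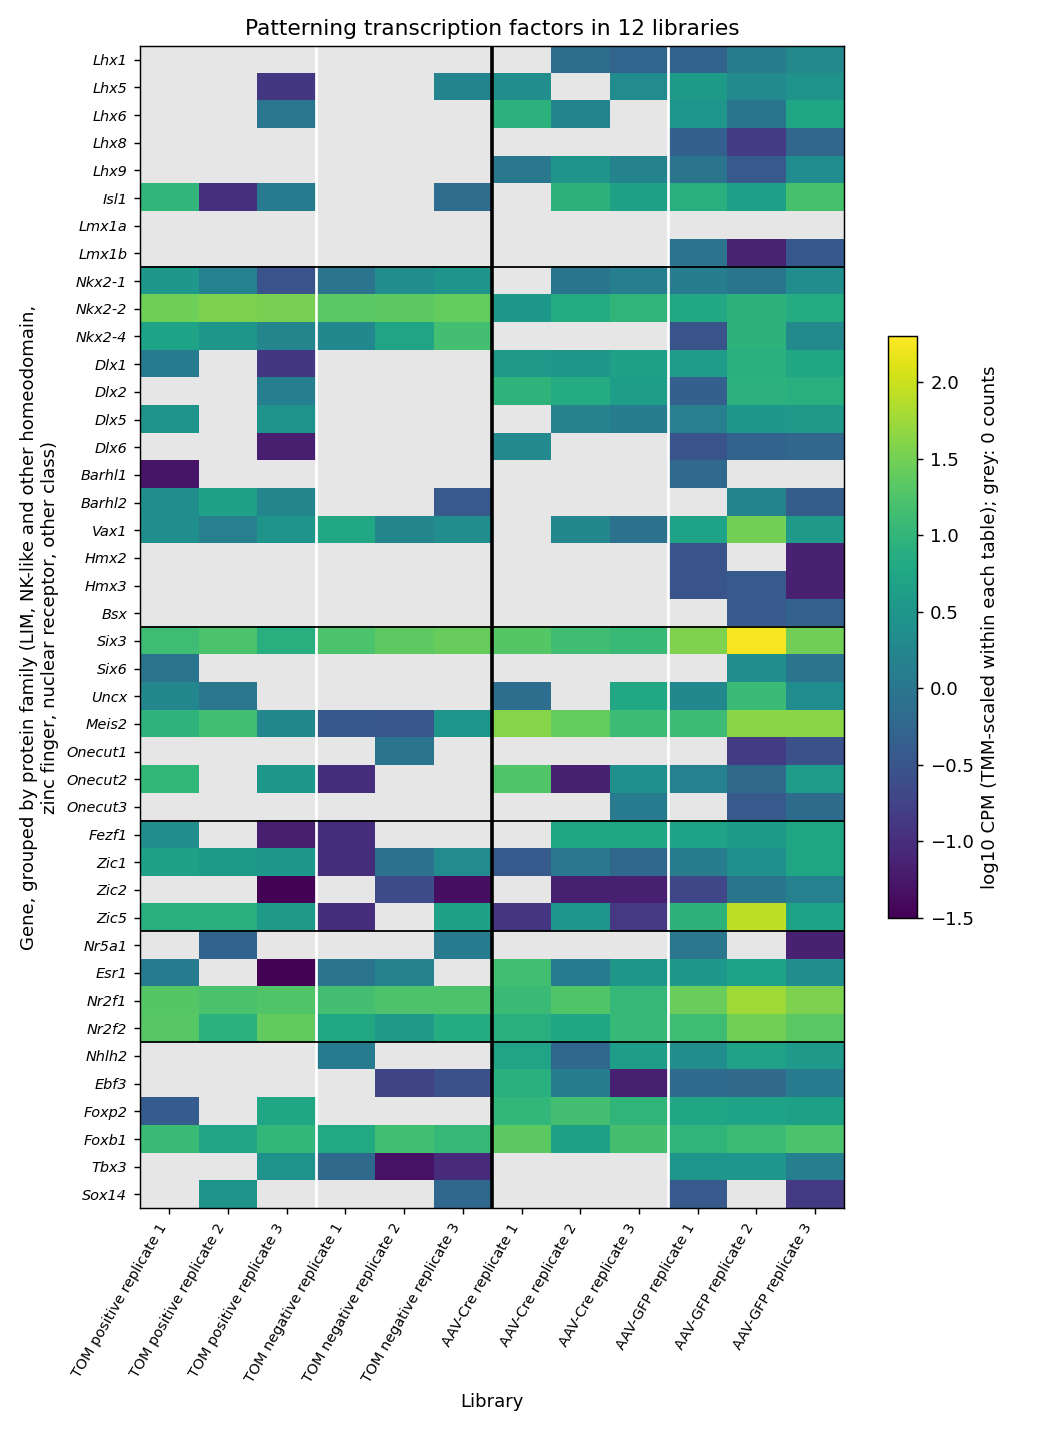
Level of each of the 42 genes (rows, grouped by protein family) in each of the 12 libraries (columns), as log10 of the counts scaled to a common library size (CPM), with the trimmed mean of M values (TMM) within each table; grey cells had 0 counts. The AAV-GFP columns are the fullest, with 36 to 40 genes counted, and 7 rows have no grey cell.

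Per library, the AAV-Cre group had 20, 24 and 26 of the genes with a count, against 36, 37 and 40 in the AAV-GFP group, a difference of -14.3 genes between means of 23.3 ± 3.06 and 37.7 ± 2.08 (SD, n = 3 each). The groups did not overlap, and the two-sided exact permutation p was 0.1, the smallest that 3 libraries against 3 can give. With at least 10 counts required, 18, 21 and 21 genes passed after AAV-Cre, against 28, 27 and 30 after AAV-GFP. TOM positive libraries counted 22, 16 and 25 genes, against 16, 15 and 19 in TOM negative libraries, and these ranges overlapped (difference 4.33, exact permutation p = 0.3). The number of all symbols counted was also lower after AAV-Cre, at 14747, 16337 and 16988, against 20778, 21515 and 23902 after AAV-GFP. In the other pair the order turned round: 17024, 16011 and 18160 symbols were counted in TOM positive libraries, against 19023, 18453 and 18998 in TOM negative libraries. Symbols with only 1 to 9 counts made up 11.3% to 14.8% of the symbols counted after AAV-Cre, against 21.2% to 32.6% after AAV-GFP. The part of this wider difference in the count of patterning genes was not tested.

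**Figure D2:**
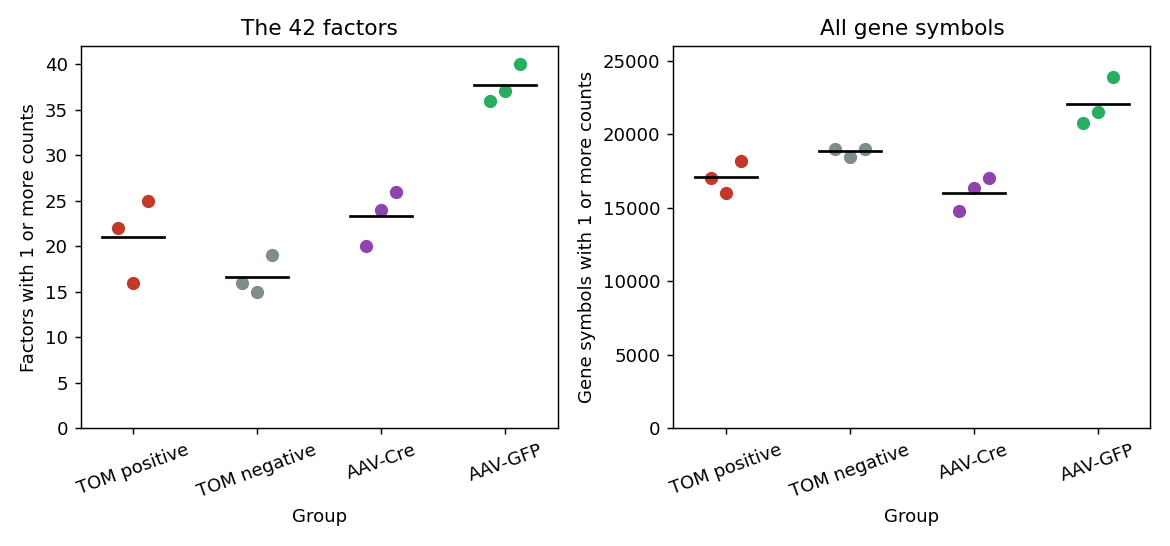
Number of the 42 factors (left) and of all gene symbols (right) with at least 1 count in each library; points are libraries and bars are group means. AAV-Cre libraries counted 20 to 26 factors, against 36 to 40 in AAV-GFP libraries, and fewer symbols overall.

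Of the 41 genes counted in the AAV libraries, 13 had counts in at least 1 AAV-GFP library and in no AAV-Cre library, and 0 showed the opposite pattern, against 2.96% of all symbols counted. Those 13 were Barhl1, Barhl2, Bsx, Hmx2, Hmx3, Lhx8, Lmx1b, Nkx2-4, Nr5a1, Onecut1, Six6, Sox14 and Tbx3. They made up 31.7% of the genes counted, where 27.6% of all symbols counted in those libraries had that pattern, so the share lay near the background. Lhx8, Lmx1b, Nkx2-4, Hmx3 and Tbx3 were counted in all 3 AAV-GFP libraries and in no AAV-Cre library, 12.2% of the genes counted, against 6.28% of all symbols. Among the 33 genes counted in the TOM libraries, 9 had counts in at least 1 TOM positive library and in no TOM negative library: Lhx6, Dlx1, Dlx2, Dlx5, Dlx6, Barhl1, Six6, Uncx and Foxp2. That was 27.3% of the genes counted, against 9.16% of all symbols. None of the 9 was counted in all 3 TOM positive libraries, and 0 genes were counted in all 3 TOM negative libraries and in no TOM positive library, against 2.51% of all symbols. The number of genes counted in TOM positive libraries alone, 9, was 14 without TOM negative replicate 3 and 6 without TOM positive replicate 3. No share of all symbols is given beside these counts or the count over all 3 TOM positive libraries. They are therefore not set against a background. Onecut1, Nhlh2 and Ebf3 had the opposite pattern, 9.09% of the genes counted against 15.5% of all symbols.

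Counts of a gene were often uneven between libraries of the same group. Of the 22 genes that reached 30 counts in some TOM positive library, 9 had 0 counts in another library of that group (40.9%), against 17.5% of all symbols that reached 30. The same share was 23.1% of 13 genes in TOM negative libraries, against 5.999% of all symbols. It was 28.6% of 21 genes after AAV-Cre, against 17.3% of all symbols, and 3.85% of 26 genes after AAV-GFP, against 0.635% of all symbols. No protocol describes molecular identifiers, so PCR copies are counted as reads, and bounds on folds cover counting error only.

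Differences were tested with edgeR's quasi-likelihood test across all genes, with Benjamini-Hochberg adjustment and a threshold of 0.05. In TOM positive against TOM negative cells, 14 of the 42 genes had enough counts to enter the fit and none passed, where 23.9% of the 15228 genes tested passed. Of the 14, 2 had an unadjusted p under 0.05, against 36.4% of all genes tested, and 8 had a positive log2 fold change, against 49.1% of all genes; their median was 0.33, against -0.02 over all genes. DESeq2, the alternative test, was run without that count filter and so on 33 of the 42 genes. DESeq2 called 6, all with higher values in TOM positive cells, where it called 22.1% of all genes. Of these, Barhl2, Meis2 and Nr2f2 were among the 14, while Dlx5, Foxp2 and Onecut2 were not. The 3 were 21.4% of the 14, where DESeq2 called 34.2% of all genes that entered the edgeR fit. After AAV-Cre against AAV-GFP, 26 of the 42 entered the fit and none passed, where 2.6% of the 15408 genes tested passed, 0.63% higher and 1.97% lower. Of those 26, 6 had an unadjusted p under 0.05, against 18.8% of all genes tested, and 8 had a positive log2 fold change, against 42.8% of all genes; their median was -0.79, against -0.16 over all genes. DESeq2 called 7 of 41, 6 of them among the 26, where it called 6.93% of all genes. The 6 were 23.1% of the 26, where DESeq2 called 10.6% of all genes that entered the edgeR fit. Of the 7, Nkx2-4, Nr2f1, Six3, Tbx3, Vax1 and Zic5 were lower after AAV-Cre and Foxp2 was higher. Genes that pass the filter because they are high in 1 group are among the 14 and among the 26. The medians and shares of the 14 and of the 26 therefore say nothing of the whole set.

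**Figure D3:**
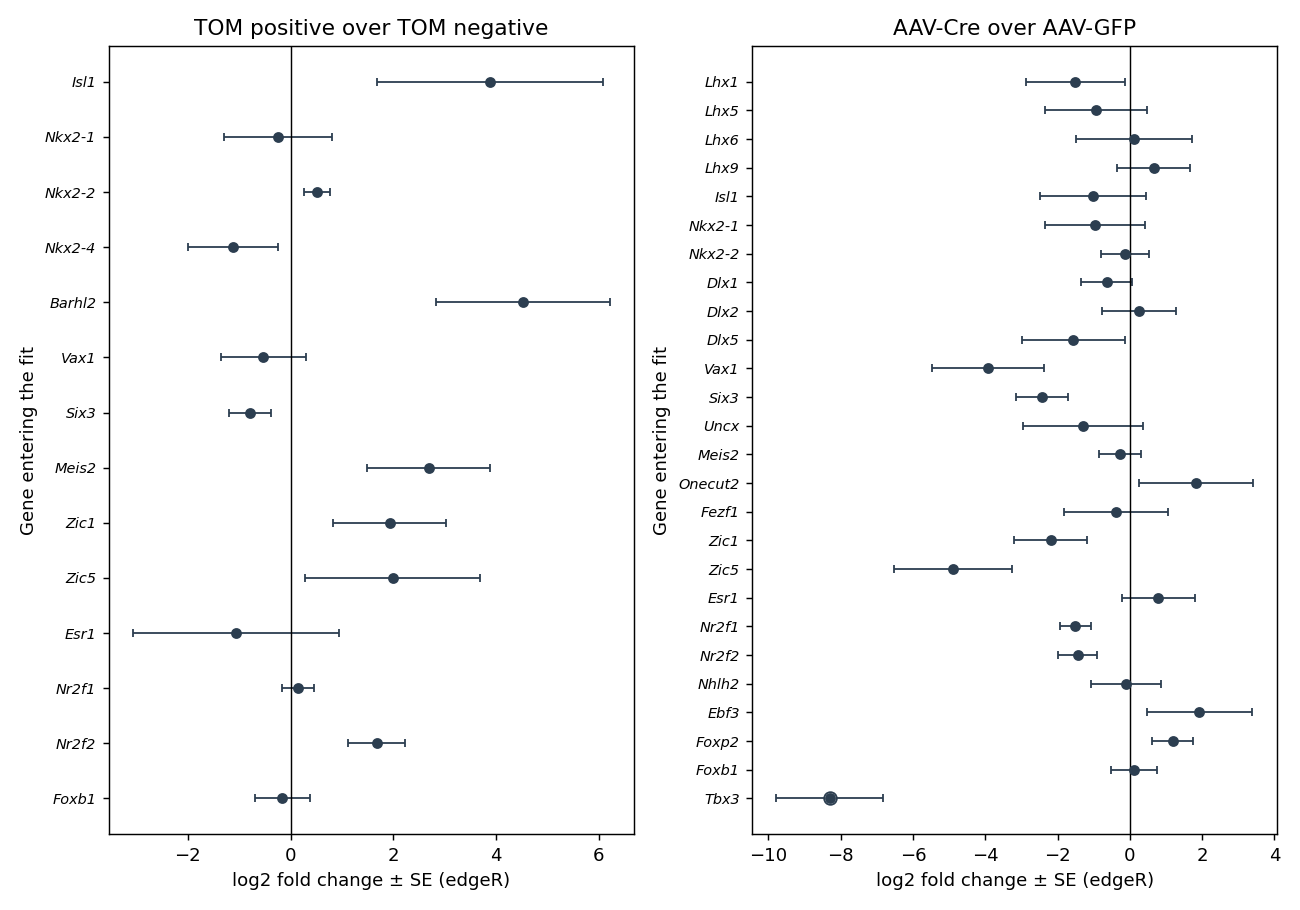
log2 fold change ± SE from edgeR for the 14 genes that entered the fit of TOM positive over TOM negative cells (left) and the 26 that entered the fit of AAV-Cre over AAV-GFP cells (right); n = 3 libraries a group. The open circle is Tbx3, which had 0 counts in every AAV-Cre library, so that its fitted value depends on the prior count; no gene passed the adjusted threshold in either panel.

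Six3, Zic5 and Vax1 had their highest values by far in AAV-GFP replicate 2, a pattern not particular to them. That library held the highest CPM of 17 of the 41 genes counted in its group (41.5%), against 33.9% of all symbols. Uncx and Nkx2-4 were among the 17. The promoters of Six3, Zic5 and Vax1 are shown to place them. Each sequence runs from 250 bases before to 50 bases after the transcription start, from RefSeq on GRCm38.p6, written 5′ to 3′ on the gene's strand. Capitals mark CCAAT (either strand, CCAAT or ATTGG) and GGGCGG (either strand, GGGCGG or CCGCCC), which are general promoter motifs. The Six3 promoter lies at chr17:85620584-85620883 on the plus strand, the Zic5 promoter at chr14:122465609-122465908 on the minus strand and the Vax1 promoter at chr19:59170348-59170647 on the minus strand.
Six3: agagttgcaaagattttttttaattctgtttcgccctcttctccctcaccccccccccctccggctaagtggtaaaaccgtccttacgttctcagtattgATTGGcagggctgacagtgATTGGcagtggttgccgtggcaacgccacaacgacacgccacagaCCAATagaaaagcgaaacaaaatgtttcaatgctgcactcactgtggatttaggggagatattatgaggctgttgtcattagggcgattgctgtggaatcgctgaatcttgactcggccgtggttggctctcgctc
Zic5: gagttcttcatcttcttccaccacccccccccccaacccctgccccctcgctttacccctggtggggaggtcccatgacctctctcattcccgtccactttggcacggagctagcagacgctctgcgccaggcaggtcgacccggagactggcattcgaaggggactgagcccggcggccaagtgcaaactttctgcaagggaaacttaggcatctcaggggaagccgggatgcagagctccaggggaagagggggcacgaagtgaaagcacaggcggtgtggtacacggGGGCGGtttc
Vax1: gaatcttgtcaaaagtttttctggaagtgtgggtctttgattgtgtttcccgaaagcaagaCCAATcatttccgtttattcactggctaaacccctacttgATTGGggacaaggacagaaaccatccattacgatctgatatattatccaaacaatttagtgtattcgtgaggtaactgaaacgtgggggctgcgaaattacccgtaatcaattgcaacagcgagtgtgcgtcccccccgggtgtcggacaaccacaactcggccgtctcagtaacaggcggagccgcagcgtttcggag
Six3 held 3 CCAAT matches, Vax1 held 2 and Zic5 held 0, while Zic5 held 1 GGGCGG match and the others 0. RefSeq promoters were matched for 32 of the 42 genes, with 38 promoters in all. CCAAT occurred in 52.6% of the 38, against 37.4% of all 32851 promoters of that length, and GGGCGG in 52.6%, against 35.7%. The homeodomain core TAATTA, the same on both strands, occurred in 5.26% of the 38, against 5.29% of all, and in none of the 3 shown. TATAAA on either strand occurred in 7.89% of the 38, against 13.6% of all. The median GC content was 60.2% in the 38 promoters and 52.7% in all, and a match is a description of letters, not of binding. CCAAT was added to the search after the letters had been read.

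LIM homeodomain genes bind DNA through a homeodomain and recruit LDB cofactors through a pair of LIM domains. The 7 of 8 that were counted in any library were each present in every AAV-GFP library, while AAV-Cre libraries held 3 to 4, TOM positive libraries 1 to 3 and TOM negative libraries 0 to 2. Isl1, which helps to specify arcuate neurons including those making POMC, had 193, 3 and 34 counts in TOM positive libraries, against 0, 0 and 16 in TOM negative libraries. The groups overlapped, since TOM positive replicate 2 lay below TOM negative replicate 3, and the log2 fold change was 3.88 ± 2.19 (SE; adjusted p = 0.253). After AAV-Cre it had 0, 133 and 69 counts, against 155, 61 and 220 after AAV-GFP, again overlapping (log2 fold change -1.02 ± 1.46, adjusted p = 0.774). Lhx6, a gene of GABAergic neurons, was counted in a single TOM positive library, at 0, 0 and 30 counts, against 0 in each TOM negative library. Its AAV-Cre libraries had 143, 24 and 0 counts, against 60, 13 and 81 after AAV-GFP (log2 fold change 0.11 ± 1.61, adjusted p = 0.982). The ranges of that pair overlapped.

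Lhx5, a gene of the mammillary and tuberal region, had 0, 0 and 4 counts in TOM positive libraries, against 0, 0 and 36 in TOM negative libraries. It had 38, 0 and 31 counts after AAV-Cre, against 72, 29 and 40 after AAV-GFP (log2 fold change -0.94 ± 1.41, adjusted p = 0.789). Only AAV-Cre replicate 2 lacked it among the AAV libraries. Lhx1, a factor of the suprachiasmatic nucleus, had 0 counts in all 6 TOM libraries. It had 0, 11 and 8 counts after AAV-Cre, against 10, 17 and 28 after AAV-GFP (log2 fold change -1.5 ± 1.37, adjusted p = 0.623). Lhx9, expressed in the neurons that make orexin, was likewise at 0 in the 6 TOM libraries and had 17, 44 and 23 counts after AAV-Cre, against 18, 5 and 32 after AAV-GFP. The AAV groups overlapped for both genes, and Lhx9 had a log2 fold change of 0.66 ± 1.01 (adjusted p = 0.792). Lmx1b had 0 counts in each AAV-Cre library, against 17, 1 and 5 after AAV-GFP, at least 7.34-fold lower when 3 counts over the AAV-Cre group are taken as the floor, a bound that was 3.24 without AAV-GFP replicate 1. Lhx8, a gene of forebrain cholinergic neurons, had 0 counts in each AAV-Cre library, against 9, 2 and 8 after AAV-GFP, at least 6.06-fold lower on the same floor.

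NK-like homeodomain genes lay out the ventral and basal hypothalamus. Nkx2-2, a ventral gene that also marks the oligodendrocyte lineage, was the highest of the 42 per kb of exon in both TOM groups, at 11.3 ± 1.26 CPM per kb in TOM positive and 7.97 ± 0.775 CPM per kb in TOM negative libraries (SD, n = 3 each). Its counts were 559, 1052 and 999 in TOM positive libraries, against 418, 463 and 554 in TOM negative libraries. On the scaled CPM scale the groups did not overlap, at 28.6, 35.8 and 33.2 CPM in TOM positive against 21.0, 22.4 and 25.4 CPM in TOM negative libraries. The log2 fold change was 0.51 ± 0.25 (SE; adjusted p = 0.201). In the TOM pair 4 of the 14 genes of the set in the fit showed no overlap, against 46.4% of all genes tested. The oligodendrocyte precursor list of 11 genes moved with Nkx2-2, at 0.323% to 0.382% of counts in TOM positive libraries, against 0.165% to 0.187% in TOM negative libraries. The part of that list in the result was not tested. Scaling to the pan-neuronal list moved the median of all genes by -2.13 on the log2 scale and with it the sign of Nkx2-2, to a log2 fold change of -1.63 (adjusted p = 0.00685), a smaller drop than that of the median gene. After AAV-Cre it had 54, 102 and 139 counts, against 115, 124 and 98 after AAV-GFP, an overlap with a log2 fold change of -0.14 ± 0.67 (adjusted p = 0.947).

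Nkx2-1, which defines the basal hypothalamus, was much less abundant. It had 66, 44 and 9 counts in TOM positive libraries, against 18, 47 and 64 in TOM negative libraries (log2 fold change -0.24 ± 1.05, adjusted p = 0.895). It had 0, 14 and 20 counts after AAV-Cre, against 25, 13 and 33 after AAV-GFP (log2 fold change -0.97 ± 1.39, adjusted p = 0.777). Neither pair of groups separated. Nkx2-4, its close relative, lies 92.1 kb from Nkx2-2 on chromosome 2. Nkx2-4 had 98, 96 and 51 counts in TOM positive libraries, against 38, 107 and 318 in TOM negative libraries (log2 fold change -1.12 ± 0.88, adjusted p = 0.411). It had 0 counts in each AAV-Cre library, against 6, 127 and 30 after AAV-GFP. On the floor of 3 counts that was at least 52.0-fold lower, and at least 16.2-fold lower without AAV-GFP replicate 2. Rax, a tanycyte gene, was also at 0 in each AAV-Cre library, against 20, 12 and 16 counts after AAV-GFP. The tanycyte and ependymal list of 9 genes took 0.00396% to 0.00620% of counts after AAV-Cre, against 0.0822% to 0.156% after AAV-GFP, and its part in the result was not tested.

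The 4 Dlx genes lie in 2 pairs, Dlx1 with Dlx2 on chromosome 2 (9.43 kb apart) and Dlx5 with Dlx6 on chromosome 6 (9.24 kb apart), and drive GABAergic neuron formation. Transcripts of these 4 genes were found in TOM positive libraries and not in TOM negative libraries: together they had 79, 0 and 131 counts in TOM positive libraries, against 0 in each TOM negative library. Over the group that was at least 55.3-fold higher on the floor of 3 counts, although TOM positive replicate 2 had none. The bound was 33.6 without TOM positive replicate 3 and 88.1 without TOM positive replicate 2. Dlx5 contributed 57, 0 and 84 of the TOM positive counts, Dlx1 contributed 22, 0 and 4, Dlx2 contributed 0, 0 and 41, and Dlx6 contributed 0, 0 and 2. Dlx4, a relative outside the set, had the opposite pattern, with 0 counts in each TOM positive library, against 16, 0 and 14 in TOM negative libraries. Dlx1as, an antisense gene that shares exon sequence with Dlx1, had 73, 152 and 74 counts in TOM positive libraries, against 6, 5 and 27 in TOM negative libraries. The TOM table does not say how strand was treated in counting, so reads of Dlx1 and Dlx1as there may not be separable by strand.

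In the PVH libraries the Dlx genes were present in both groups, summing to 236, 174 and 148 counts after AAV-Cre, against 120, 288 and 251 after AAV-GFP. Dlx1 had 56, 48 and 68 counts after AAV-Cre, against 77, 113 and 81 after AAV-GFP (log2 fold change -0.64 ± 0.71, adjusted p = 0.698). Dlx2 had 149, 103 and 62 counts after AAV-Cre, against 9, 121 and 113 after AAV-GFP (log2 fold change 0.26 ± 1.02, adjusted p = 0.933). The CPM ranges of the groups overlapped for both. Dlx5 had 0, 23 and 18 counts after AAV-Cre, against 28, 47 and 49 after AAV-GFP (log2 fold change -1.56 ± 1.42, adjusted p = 0.624). Dlx6 had 31, 0 and 0 counts after AAV-Cre, against 6, 7 and 8 after AAV-GFP, so that its higher values after AAV-Cre came from 1 library. Neighbouring Dlx genes were not always counted together: Dlx5 and Dlx6 were both counted in 4 libraries, neither in 4 and 1 of the 2 in the other 4, while Dlx1 and Dlx2 differed in 1 library.

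Barhl2, a BarH-like gene of the diencephalon, was counted in all 3 TOM positive libraries. It had 48, 138 and 51 counts in TOM positive libraries, against 0, 0 and 8 in TOM negative libraries. The groups did not overlap, with means of 2.95 ± 1.56 CPM and 0.122 ± 0.211 CPM (SD, n = 3 each), and the log2 fold change was 4.52 ± 1.69 (SE; adjusted p = 0.0962). Barhl2 had 0 counts in each AAV-Cre library, against 0, 23 and 6 after AAV-GFP, at least 9.26-fold lower, a bound that was 2.70 without AAV-GFP replicate 2. Barhl1, its relative in the mammillary region, had 1, 0 and 0 counts in TOM positive libraries, against 0 in each TOM negative library. It had 0 in each AAV-Cre library, against 12, 0 and 0 after AAV-GFP, so a single library carried it.

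Vax1, a gene of the optic stalk and preoptic area, had 49, 42 and 89 counts in TOM positive libraries, against 119, 35 and 50 in TOM negative libraries (log2 fold change -0.53 ± 0.83, adjusted p = 0.695). After AAV-Cre it had 0, 27 and 12 counts, against 98, 444 and 51 after AAV-GFP. No AAV-Cre value reached the AAV-GFP range, with means of 0.884 ± 0.915 CPM and 13.6 ± 16.1 CPM (SD, n = 3 each) and a log2 fold change of -3.93 ± 1.55 (adjusted p = 0.226), which was -2.29 without AAV-GFP replicate 2. In that pair 8 of the 26 genes showed no overlap, against 28.5% of all genes tested. Hmx2 and Hmx3, neighbours on chromosome 7 needed for the neurons that make growth-hormone-releasing hormone, had AAV-GFP counts of 6, 0 and 1 for Hmx2 and 6, 5 and 1 for Hmx3, and 0 elsewhere. Bsx, a factor of arcuate AgRP neurons, had AAV-GFP counts of 0, 5 and 7 and 0 elsewhere. At these counts Hmx2, Hmx3 and Bsx lay close to the floor.

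**Figure D4:**
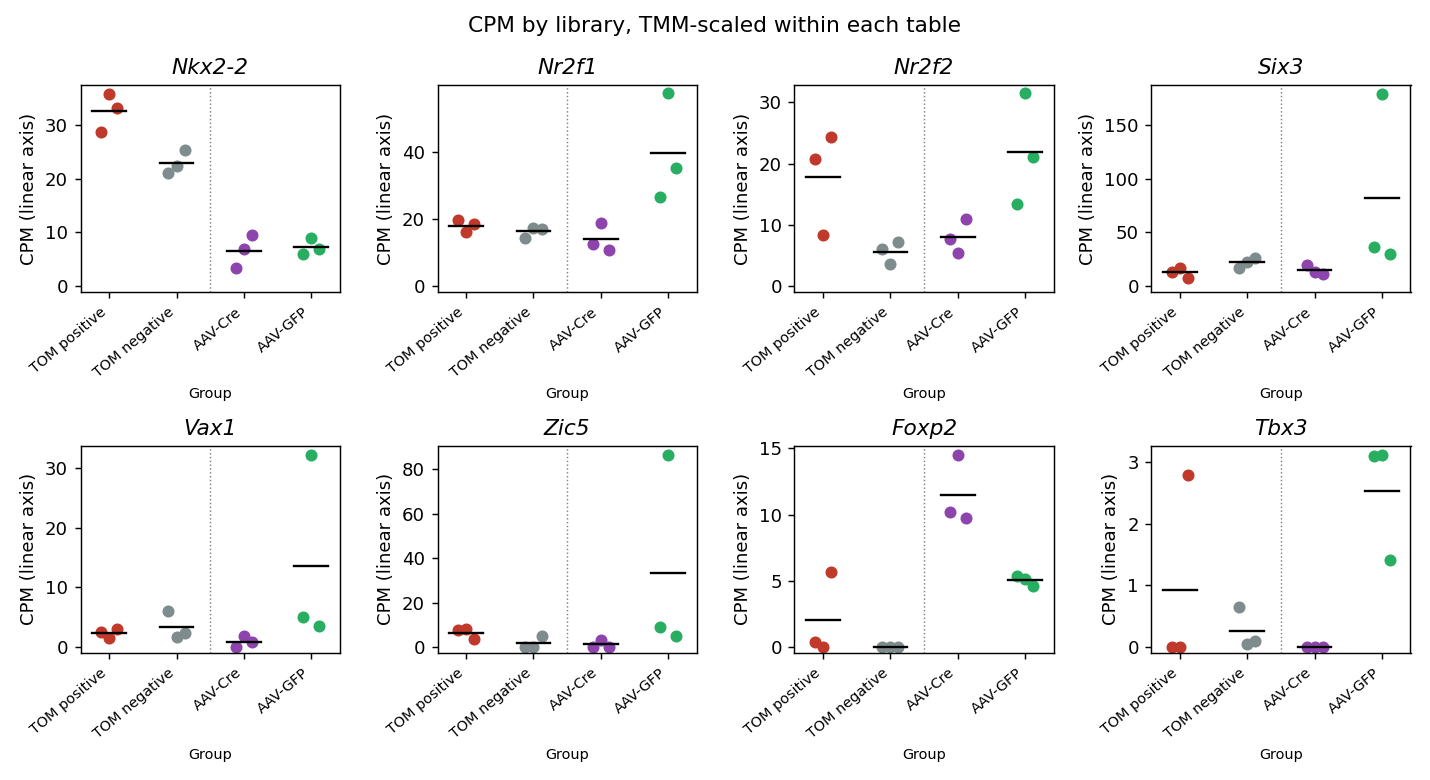
CPM of 8 genes in each library, TMM-scaled within each table, on linear axes; points are libraries, bars are group means and the dotted line separates the 2 tables. AAV-GFP replicate 2 holds the highest point of Nr2f1, Nr2f2, Six3, Vax1 and Zic5, and Tbx3 is at 0 in the 3 AAV-Cre libraries.

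The other homeodomain genes were led by Six3, a gene required for the anterior forebrain. Six3 had 261, 499 and 240 counts in TOM positive libraries, against 338, 472 and 578 in TOM negative libraries. On the CPM scale TOM positive libraries reached 17.0 at most and TOM negative libraries began at 17.0, so the ranges met, with a log2 fold change of -0.79 ± 0.40 (SE; adjusted p = 0.208). After AAV-Cre it had 323, 200 and 172 counts, against 714, 2470 and 433 after AAV-GFP. These groups did not overlap, with means of 15.1 ± 4.38 CPM and 82.0 ± 83.8 CPM (SD, n = 3 each). The log2 fold change was -2.43 ± 0.71 (adjusted p = 0.119) and was -1.16 without AAV-GFP replicate 2. Per kb of exon, Six3 was the highest of the 42 after AAV-GFP at 15.0 ± 15.4 CPM per kb, a spread as large as the mean, while Foxb1 led after AAV-Cre at 4.67 ± 2.91 CPM per kb. Six3os1, an antisense gene that overlaps Six3, had 63, 193 and 133 counts after AAV-Cre, against 220, 129 and 163 after AAV-GFP, and did not share the peak in AAV-GFP replicate 2. Counting of the AAV libraries set no strand and left out reads that map to several genes. Reads in exon sequence shared by the pair were therefore counted for neither.

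Meis2, a TALE homeodomain gene that works as a cofactor of other homeodomain proteins, had 180, 408 and 55 counts in TOM positive libraries, against 7, 7 and 69 in TOM negative libraries. The groups overlapped through TOM positive replicate 3 and TOM negative replicate 3, and the log2 fold change was 2.69 ± 1.20 (adjusted p = 0.153). It had 659, 378 and 186 counts after AAV-Cre, against 251, 578 and 590 after AAV-GFP (log2 fold change -0.28 ± 0.59, adjusted p = 0.857). Uncx, a paired-like gene of the hypothalamo-neurohypophysial system, had 36, 30 and 0 counts in TOM positive libraries, against 0 in each TOM negative library, at least 17.4-fold higher, a bound that was 10.5 without TOM positive replicate 1. After AAV-Cre it had 12, 0 and 87 counts, against 37, 173 and 32 after AAV-GFP (log2 fold change -1.31 ± 1.66, adjusted p = 0.741). Six6, a relative of Six3 in the eye and suprachiasmatic nucleus, had 18, 0 and 0 counts in TOM positive libraries, against 0 in each TOM negative library. It was at 0 in each AAV-Cre library, against 0, 34 and 13 after AAV-GFP, at least 15.0-fold lower and at least 5.86-fold lower without AAV-GFP replicate 2.

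The Onecut genes, which join a cut domain to a homeodomain, were scattered. Onecut2 had 206, 0 and 101 counts in TOM positive libraries, against 2, 0 and 0 in TOM negative libraries, a ratio of 121 (95% counting interval 33.3 to 1006). The interval covers counting error only, not the spread between libraries. The TOM groups overlapped at 0 counts, and Onecut2 did not enter the fit there. Onecut2 had 300, 1 and 37 counts after AAV-Cre, against 29, 9 and 54 after AAV-GFP (log2 fold change 1.84 ± 1.57, adjusted p = 0.598). Each AAV-Cre library held a different level of Onecut2. Onecut1 had 0 counts in each TOM positive library, against 0, 19 and 0 in TOM negative libraries, and 0 in each AAV-Cre library, against 0, 2 and 4 after AAV-GFP. Onecut3 was at 0 in the TOM libraries and had 0, 0 and 17 counts after AAV-Cre, against 0, 5 and 10 after AAV-GFP.

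Among the zinc finger genes, the Zic family, which patterns the dorsal midline and forebrain, was led by Zic1 and Zic5. Zic1 had 92, 109 and 100 counts in TOM positive libraries, against 2, 17 and 47 in TOM negative libraries, with no overlap (log2 fold change 1.93 ± 1.10, adjusted p = 0.256). It had 6, 15 and 9 counts after AAV-Cre, against 24, 35 and 78 after AAV-GFP, again with no overlap (log2 fold change -2.19 ± 1.00, adjusted p = 0.294). Zic4, which overlaps Zic1 on the other strand, had 387, 55 and 100 counts after AAV-Cre, against 169, 114 and 124 after AAV-GFP. Zic5 had 152, 234 and 109 counts in TOM positive libraries, against 2, 0 and 104 in TOM negative libraries (log2 fold change 1.99 ± 1.70, adjusted p = 0.451). It had 2, 46 and 2 counts after AAV-Cre, against 176, 1193 and 72 after AAV-GFP. The AAV groups did not overlap, and the log2 fold change was -4.89 ± 1.63 (adjusted p = 0.162), -2.66 without AAV-GFP replicate 2 and -7.92 without AAV-Cre replicate 2. Zic2 lies 9.76 kb from Zic5 on chromosome 14 and was far lower. Zic2 had 0, 0 and 1 counts in TOM positive libraries, against 0, 5 and 1 in TOM negative libraries. It had 0, 1 and 1 counts after AAV-Cre, against 4, 13 and 21 after AAV-GFP, a ratio of 0.055 (95% counting interval 0.00642 to 0.213). This interval too covers counting error only, not the spread between libraries. Zic2 was highest in AAV-GFP replicate 3 and Zic5 in AAV-GFP replicate 2.

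Fezf1, a zinc finger gene of the ventromedial hypothalamus (VMH), had 47, 0 and 2 counts in TOM positive libraries, against 2, 0 and 0 in TOM negative libraries, a ratio of 19.4 (95% counting interval 5.08 to 164) that rested on TOM positive replicate 1. The interval does not cover the spread between libraries. Fezf1 had 0, 79 and 80 counts after AAV-Cre, against 98, 51 and 77 after AAV-GFP (log2 fold change -0.39 ± 1.45, adjusted p = 0.93). Nr5a1, the steroidogenic factor that defines the VMH, did not follow Fezf1. Nr5a1 had 0, 15 and 0 counts in TOM positive libraries, against 0, 0 and 25 in TOM negative libraries. It had 0 in each AAV-Cre library, against 20, 0 and 1 after AAV-GFP. Esr1, the oestrogen receptor alpha of VMH, arcuate and preoptic neurons, had 23, 0 and 1 counts in TOM positive libraries, against 18, 33 and 0 in TOM negative libraries (log2 fold change -1.06 ± 2.01, adjusted p = 0.751). It had 229, 18 and 48 counts after AAV-Cre, against 66, 71 and 33 after AAV-GFP (log2 fold change 0.79 ± 1.02, adjusted p = 0.746).

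Nr2f1 and Nr2f2, the orphan nuclear receptors COUP-TFI and COUP-TFII, were counted in every library and are described side by side. Nr2f2 had 406, 245 and 735 counts in TOM positive libraries, against 121, 74 and 156 in TOM negative libraries. The groups did not overlap, with means of 17.8 ± 8.43 CPM and 5.60 ± 1.83 CPM (SD, n = 3 each) and a log2 fold change of 1.67 ± 0.55 (SE; adjusted p = 0.0666). With library totals and no scaling factor it passed, at 1.92 (adjusted p = 0.0431), and relative to the pan-neuronal list its direction turned, at -0.50 (adjusted p = 0.504). Nr2f1 had 385, 471 and 554 counts in TOM positive libraries, against 288, 361 and 373 in TOM negative libraries. Its means were 18.0 ± 1.87 CPM and 16.3 ± 1.63 CPM and the groups overlapped (log2 fold change 0.14 ± 0.31, adjusted p = 0.781). The difference between the 2 receptors was not tested.

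In the AAV libraries both receptors lay lower after AAV-Cre. Nr2f1 had 201, 276 and 155 counts after AAV-Cre, against 515, 795 and 500 after AAV-GFP. The groups did not overlap, with means of 13.9 ± 4.22 CPM and 39.7 ± 16.0 CPM and a log2 fold change of -1.51 ± 0.43 (adjusted p = 0.111). Nr2f2 had 124, 80 and 161 counts after AAV-Cre, against 259, 435 and 301 after AAV-GFP. Its means were 8.06 ± 2.83 CPM and 22.0 ± 9.08 CPM with no overlap, and the log2 fold change was -1.45 ± 0.54 (adjusted p = 0.201). Over the fits that left out 1 library, the log2 fold change ran over -1.79 to -1.16 for Nr2f1 and over -1.75 to -1.11 for Nr2f2. A list of 13 endothelial genes was also lower, at 0.0148% to 0.0174% of counts after AAV-Cre, against 0.0479% to 0.0810% after AAV-GFP. The 15 oligodendrocyte genes went the other way, at 5.96% to 7.46% after AAV-Cre, against 1.56% to 5.02% after AAV-GFP. The part of either list in the results was not tested.

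Tbx3, a T-box factor of the arcuate and infundibular region, came nearest to the threshold. It had 0 counts in each AAV-Cre library, against 60, 43 and 20 after AAV-GFP, at least 39.3-fold lower on the floor of 3 counts, with an adjusted p of 0.0528. DESeq2 gave an adjusted p of 9.7e-05, and without a filter on low counts edgeR gave 0.0465. Tbx3 passed in 0 of the 6 fits without 1 library (edgeR adjusted p up to 0.18) and did not pass with the replicate block. The bound was 34.0 without AAV-GFP replicate 1, the highest library. In the TOM libraries it had 0, 0 and 84 counts in TOM positive, against 13, 1 and 2 in TOM negative, so that a single library was high. Tbx3os1, which overlaps it on the other strand, had 0 counts in each AAV-Cre library, against 6, 0 and 1 after AAV-GFP.

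Foxp2, a forkhead factor of several hypothalamic and thalamic nuclei, was the one gene of the 26 tested that lay higher after AAV-Cre without overlap, at 164, 214 and 142 counts, against 104, 71 and 66 after AAV-GFP. Its means were 11.5 ± 2.62 CPM and 5.05 ± 0.374 CPM (SD, n = 3 each), and the log2 fold change was 1.18 ± 0.56 (adjusted p = 0.312). It had 8, 0 and 170 counts in TOM positive libraries, against 0 in each TOM negative library, at least 46.9-fold higher, a bound that was 3.40 without TOM positive replicate 3. Foxb1, a forkhead factor of the mammillary body, was counted in every library. Foxb1 had 243, 154 and 314 counts in TOM positive libraries, against 128, 294 and 234 in TOM negative libraries (log2 fold change -0.16 ± 0.54, adjusted p = 0.865). It had 355, 71 and 218 counts after AAV-Cre, against 189, 174 and 237 after AAV-GFP (log2 fold change 0.10 ± 0.64, adjusted p = 0.958). Both pairs of groups overlapped.

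Nhlh2, a helix-loop-helix factor of arcuate and PVH neurons, had 0 counts in each TOM positive library, against 23, 0 and 0 in TOM negative libraries. It had 85, 9 and 61 counts after AAV-Cre, against 45, 67 and 52 after AAV-GFP (log2 fold change -0.10 ± 0.97, adjusted p = 0.975). Ebf3, a helix-loop-helix factor of the COE family, had 0 counts in each TOM positive library, against 0, 4 and 6 in TOM negative libraries. It had 132, 19 and 1 counts after AAV-Cre, against 13, 9 and 17 after AAV-GFP (log2 fold change 1.92 ± 1.45, adjusted p = 0.541). The AAV-Cre libraries of both genes spanned the AAV-GFP range. Sox14, an HMG-box gene of GABAergic neurons, had 0, 86 and 0 counts in TOM positive libraries, against 0, 0 and 13 in TOM negative libraries. It had 0 in each AAV-Cre library, against 7, 0 and 2 after AAV-GFP.

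Homeodomain proteins act with partners, and a list of 27 of these was read in the same fits: LDB and SSBP proteins hold LIM factors together, LMO proteins compete with them, TLE proteins repress, and EYA, DACH, PBX and MEIS proteins bind the sine oculis and TALE homeodomain factors. In TOM positive against TOM negative cells, 25 entered the fit and 4 passed, 1 higher and 3 lower, where 10.4% of all genes tested were higher and 13.4% lower. This balance depends on the scaling: without a scaling factor 3 partners were higher and 2 lower, with 2203 of all genes higher and 1532 lower, and with pan-neuronal scaling 0 partners were higher and 15 lower, with 67 of all genes higher and 9299 lower. Tle2 was higher in TOM positive cells at 44.0 ± 10.1 CPM, against 17.1 ± 2.03 CPM in TOM negative cells (log2 fold change 1.36 ± 0.28, adjusted p = 0.0132). Ssbp4 fell to 44.6 ± 0.756 CPM in TOM positive cells, against 119 ± 6.46 CPM in TOM negative cells (log2 fold change -1.42 ± 0.16, adjusted p = 0.00134). Ldb1, the main LIM cofactor, fell to 41.0 ± 14.7 CPM in TOM positive cells, against 93.2 ± 10.3 CPM in TOM negative cells (log2 fold change -1.18 ± 0.29, adjusted p = 0.0256). Lmo2 fell to 5.91 ± 5.27 CPM in TOM positive cells, against 122.9 ± 11.04 CPM in TOM negative cells (log2 fold change -4.36 ± 0.80, adjusted p = 0.00929). Ssbp4 and Lmo2 passed in each of the 6 fits without 1 library. Tle2 did not pass without TOM negative replicate 2 (adjusted p = 0.0655), with the replicate block (adjusted p = 0.0581) or with pan-neuronal scaling, where its log2 fold change was -0.77 (adjusted p = 0.129). Ldb1 passed in 2 of the 6 fits, those without TOM positive replicate 1 or 2, with adjusted p up to 0.101 in the others, and did not pass without a scaling factor (adjusted p = 0.06). Lmo2 is best known from blood and endothelial cells. The list of 17 microglial genes took 0.0611% to 0.136% of counts in TOM positive libraries, against 2.87% to 3.26% in TOM negative libraries, and its part in these results was not tested.

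After AAV-Cre against AAV-GFP, 26 of the 27 partners entered the fit and none passed by edgeR, with 7 at an unadjusted p under 0.05, against 18.8% of all genes tested. DESeq2 called 3 of 27, against 6.93% of all genes. Of the 26, 5 had a positive log2 fold change, against 42.8% of all genes, with a median of -0.87 against -0.16 over all genes. Tle5, the most abundant partner in both tables, averaged 272 ± 16.1 CPM after AAV-Cre, against 497 ± 304 CPM after AAV-GFP (log2 fold change -0.87 ± 0.43, adjusted p = 0.333). It averaged 336 ± 33.6 CPM in TOM positive cells, against 276 ± 15.5 CPM in TOM negative cells (log2 fold change 0.28 ± 0.14, adjusted p = 0.196). Ssbp4 averaged 110 ± 19.5 CPM after AAV-Cre, against 295 ± 198 CPM after AAV-GFP (log2 fold change -1.43 ± 0.48, adjusted p = 0.161). Ssbp3 averaged 72.6 ± 6.85 CPM after AAV-Cre, against 157 ± 50.2 CPM after AAV-GFP (log2 fold change -1.11 ± 0.31, adjusted p = 0.0995). AAV-GFP replicate 2 was the highest of its group for each of them, at 837 CPM for Tle5, 519 for Ssbp4 and 207 for Ssbp3. Without 1 library, their AAV log2 fold changes ran over -1.12 to -0.28 for Tle5, -1.68 to -0.75 for Ssbp4 and -1.26 to -0.88 for Ssbp3.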

How the data were processed

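Counts were analysed for 12 libraries. The authors deposited raw counts for each gene symbol with no normalization. Tools in the submitters' processing notes were FastQC, Trim Galore, STAR and featureCounts, with build mm10. Fragments of the AAV libraries were counted by featureCounts 2.0.1, per the file headers, by gene name on GENCODE vM30, with no strand set and without reads that map to several places or genes. The notes' build and that annotation differ, so no gene position from the files is printed, only gaps between genes; the settings used for the TOM table are not stated in its file. Per the labels' protocols, cells went into Trizol and libraries came from a SMART-Seq kit, with no molecular identifiers described.

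The 6 libraries of a comparison were fitted alone, in R 4.3.3 with edgeR 4.0.16 (TMM scaling, filterByExpr with a minimum count of 10, quasi-likelihood test, two-sided, Benjamini-Hochberg adjustment over all genes tested, threshold 0.05). CPM are TMM-scaled within each table, so levels are not compared between tables. The scripts were tested on simulated data. Alternatives were DESeq2 1.42.0, other scalings, no filter, a replicate block and leaving out each library; 2 counts of genes by group and the bound of Dlx4 were also taken without single libraries, chosen after seeing the data. A fold against a group at 0 is a bound with 3 counts over that group as the floor, and intervals of ratios are 95% exact counting intervals. Every one of the 42 genes is accounted for, with counts per library for those with at least 10 counts in a library and the test for those that entered the fit; of the partner and relative lists, genes past the threshold and the 3 most abundant partners are named. Members and lists were chosen with earlier results of these data known. No column of per-sample values was left unused.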

Additional observations from a re-analysis of the deposited data

How the results depend on the processing

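No patterning gene passed in either comparison with edgeR's main settings, so the alternatives add calls and cannot remove one. In TOM positive against TOM negative cells the genes of the set called numbered 6 with DESeq2, 1 with library totals and no scaling factor (Nr2f2) and 6 with scaling to the pan-neuronal list (Foxb1, Nkx2-2, Nkx2-4, Nr2f1, Six3 and Vax1, all lower); leaving out 1 library gave 0 to 4. All genes called, 3634 with the main settings, numbered 5468 with DESeq2, 9366 with pan-neuronal scaling and 1511 to 3547 without 1 library (1511 without TOM negative replicate 2). Partners called, 4 with the main settings, numbered 7 with DESeq2, 15 with pan-neuronal scaling and 2 to 4 without 1 library. After AAV-Cre against AAV-GFP the genes of the set called numbered 7 with DESeq2 and 3 without a filter (Nkx2-4, Six3 and Tbx3), and 0 in every fit without 1 library. All genes called there, 400 with the main settings, numbered 1883 with DESeq2, 712 without a filter, 203 with pan-neuronal scaling, and 0 to 296 without 1 library: 0 without AAV-GFP replicate 1, 2 without AAV-GFP replicate 2, 0 without AAV-GFP replicate 3 and 122 without AAV-Cre replicate 2. Partners called numbered 3 with DESeq2. Counts of genes seen in 1 group alone ran over 6 to 14 for TOM positive without 1 library (9 in full) and over 12 to 14 for AAV-GFP (13 in full). No share of all symbols is given beside these ranges, so they are not set against a background.

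Replicate numbers recur in the labels, but same-numbered libraries did not deviate together, with correlations of -0.06, -0.03 and 0.05 in the TOM table and -0.09, -0.10 and -0.07 in the AAV table. With the replicate block 1987 genes were called in the TOM table and 0 in the AAV table, and 0 of the set in either; of single genes in the AAV table it turned Lhx6 (-0.44), Onecut2 (-0.052) and Foxb1 (-0.12).

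Scaling moved the median of all genes by 0.26 (no scaling factor) and -2.13 (pan-neuronal) on the log2 scale in the TOM table, and by 0.16 and -0.21 in the AAV table. Log2 fold changes that turned without a scaling factor were Nkx2-1 (0.011) and Foxb1 (0.10) in the TOM table and Nkx2-2 (0.025) and Nhlh2 (0.081) in the AAV table. Those that turned with pan-neuronal scaling were Nkx2-2 (-1.63), Zic1 (-0.38), Zic5 (-0.41), Nr2f1 (-2.01) and Nr2f2 (-0.50) in the TOM table and Lhx6 (-0.026), Dlx2 (-0.021) and Foxb1 (-0.10) in the AAV table. Without 1 library, the sign turned within these ranges in the TOM table: Nkx2-1 -1.18 to 0.25, Vax1 -0.85 to 0.20 and Foxb1 -0.42 to 0.13. In the AAV table the ranges were Lhx6 -1.99 to 0.89, Nkx2-2 -0.51 to 0.17, Dlx2 -0.22 to 0.69, Uncx -3.86 to 0.10, Meis2 -0.75 to 0.047, Onecut2 -0.61 to 2.80, Fezf1 -0.83 to 0.19, Esr1 -0.69 to 1.27, Nhlh2 -0.59 to 0.39, Ebf3 -0.31 to 2.48 and Foxb1 -0.40 to 0.50. The cause of these changes was not tested. Of 480 single-gene values under an alternative, 424 kept their direction and side of the threshold, 37 turned and 19 passed it. The limit that a count of 0 allows was 0.108 to 0.222 CPM in a single library and 0.0415 to 0.0698 CPM over the 3 libraries of a group, so low genes at 0 are not shown to be absent.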

Other observations

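The closest relatives of the patterning genes were read as a list of 34 family members, such as Lhx2, Dlx3, Dlx4, Tbx2 and Vax2. Of these 34, 20 had 0 counts in all TOM positive libraries, against 16 in all TOM negative libraries, and 21 had 0 in all AAV-Cre libraries, against 9 in all AAV-GFP libraries. In TOM positive against TOM negative cells 10 entered the fit and 1 passed, where 23.9% of all genes did. That gene was Nr2f6, an orphan receptor related to Nr2f1 and Nr2f2, which fell to 22.7 ± 3.74 CPM in TOM positive cells, against a TOM negative mean of 55.1 ± 7.31 CPM (SD, n = 3 each; edgeR log2 fold change -1.28 ± 0.24, adjusted p = 0.0105). Nr2f6 did not pass without TOM negative replicate 2 (edgeR adjusted p = 0.0596). After AAV-Cre against AAV-GFP 14 entered and 1 passed, where 2.6% of all genes did. That gene was Dlx4, a Dlx gene outside the GABAergic set, with 0 counts in each AAV-Cre library, against 362, 133 and 92 after AAV-GFP (edgeR adjusted p = 0.0308). It passed in 2 of the 6 fits without 1 library, those without AAV-Cre replicate 1 or 3, with edgeR adjusted p from 0.0598 to 0.156 in the others, and did not pass with the replicate block (edgeR adjusted p = 0.197). On the floor of 3 counts over the AAV-Cre group Dlx4 was at least 187-fold lower, and at least 121-fold lower without AAV-GFP replicate 1. The Dlx genes of the patterning set did not pass in those libraries, and the difference between them and Dlx4 was not tested. Tbx2, a relative of Tbx3, was also at 0 in each AAV-Cre library, against 21, 69 and 13 counts after AAV-GFP, and did not pass (edgeR adjusted p = 0.0672); Tbx2 was named after its values were seen.

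AAV-GFP replicate 2 held the highest CPM of 17 of the 41 genes of the set counted in its group (41.5%), and 33.9% of all symbols were highest there. Its patterning genes summed to 508 CPM of the library total, against 174 and 218 CPM in AAV-GFP replicates 1 and 3. In the TOM table, TOM negative replicate 3 held the highest CPM of 15 of the 24 genes counted in its group (62.5%). Of all symbols, 38.9% were highest there. TOM positive replicate 1 held the highest CPM of 14 of the 30 genes counted in its group (46.7%), against 33.2% of all symbols.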
